A study of Mus musculus with 18 samples.

Results

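Colon RNA from mice given Akkermansia muciniphila (AKK) by gavage was compared with colon RNA from the dextran sulfate sodium (DSS) colitis mice called Model, over all expressed genes. The 12 libraries of these groups, 6 AKK and 6 Model, were taken from the 18 libraries of the series, whose remaining 6 are untreated Control. A gene was included when its FPKM (fragments mapped to the gene, scaled by transcript length and library depth) was 1 or more in at least 6 of the 12 libraries, which left 13697 of the 36451 genes in the deposited table. The series addresses whether the bacterium affects colitis through ferroptosis, cell death by iron-dependent lipid peroxidation.

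AKK mice received 0.1 mL of a suspension at 1500000000 CFU per mL once a week for 6 weeks. Model mice drank 3% DSS for 1 week and were gavaged with PBS. Control mice were male C57BL/6J, 6 weeks old, with no treatment named. The design text speaks of AKK as an intervention in a colitis model but gives DSS under Model alone, so DSS in AKK mice is not stated. It also names the ferroptosis agonist Erastin, for which no group is analysed here. Strain, sex and age are likewise given for Control alone. The labels name no cohort or batch, so treatment and any such difference between the groups cannot be told apart. Whether each library comes from its own mouse is not stated, so p-values measure the spread between these libraries, which may be technical.

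DSS damages the colonic epithelium and lets luminal bacteria reach the mucosa, and Akkermansia muciniphila is a commensal that feeds on mucin in the mucus layer. Cholesterol is built from acetyl-CoA through the mevalonate pathway, in which HMG-CoA synthase acts early and a series of sterol-modifying enzymes act late. When sterol in the endoplasmic reticulum is low, SCAP escorts the transcription factor SREBP-2 to the Golgi, where it is cleaved and then raises these enzymes. INSIG proteins retain the complex of SCAP and SREBP-2 when sterol is high.

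Not every library matched the tissue on its label. In the library Model_1337 the squamous keratins Krt5 and Krt14 stood at 1060 and 1580 FPKM, against at most 0.328 and 0.462 FPKM in the other Model libraries. The same library had 0.904 FPKM of the intestinal transcription factor Cdx2, 26.3 FPKM of the mucin gene Muc2 and 132 FPKM of the skeletal muscle actin Acta1. Model_1341 carried 17% of its counts in mitochondrially encoded genes, while AKK libraries held 5.7% to 7.04% and the other Model libraries 3.93% to 7.7%. The distal hindgut gene Hoxb13 ranged from 0 to 58.9 FPKM in AKK and from 0 to 100 FPKM in Model. The part of this spread in the results was not tested. Total counts were 60665457 to 82589848 in AKK and 58841661 to 79147073 in Model, and 3 AKK libraries and Model_1341 exceeded 70000000. Values without Model_1337 are given beside many of the results that it moved.

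Just 3 genes passed the adjusted threshold, all of them higher in AKK, and in none did the AKK libraries overlap the Model libraries. Those described here are Hmgcs1 and Aacs, which make precursors of sterol, at 1.66-fold and 1.55-fold of Model. The calls were 3 of 13697 genes, or 0.0219%, at a Benjamini-Hochberg adjusted p under 0.05 by edgeR's quasi-likelihood test. No gene was called lower (0 genes by edgeR and by limma on log2(FPKM + 1), 1 by DESeq2), with 574 genes lower at an unadjusted p under 0.05.

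The upstream sequences of Hmgcs1 and Aacs, the 2 genes with the smallest p, and of Lss, a late enzyme of the pathway, are shown because SREBP target promoters commonly pair a sterol regulatory element with a CCAAT box. Each is the 250 bases before the RefSeq start on GRCm38.p6, plus strand, at chr13:119690101-119690350 for Hmgcs1, chr5:125475623-125475872 for Aacs and chr10:76531355-76531604 for Lss. Capitals mark CACCCCAC, a form of the sterol regulatory element, and CCAAT, on either strand (GTGGGGTG and ATTGG on the other).
Hmgcs1: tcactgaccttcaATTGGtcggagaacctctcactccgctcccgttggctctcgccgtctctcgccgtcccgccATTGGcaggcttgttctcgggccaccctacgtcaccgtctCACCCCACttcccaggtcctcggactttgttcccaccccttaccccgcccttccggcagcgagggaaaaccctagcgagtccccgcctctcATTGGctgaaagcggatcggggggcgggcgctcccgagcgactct
Aacs: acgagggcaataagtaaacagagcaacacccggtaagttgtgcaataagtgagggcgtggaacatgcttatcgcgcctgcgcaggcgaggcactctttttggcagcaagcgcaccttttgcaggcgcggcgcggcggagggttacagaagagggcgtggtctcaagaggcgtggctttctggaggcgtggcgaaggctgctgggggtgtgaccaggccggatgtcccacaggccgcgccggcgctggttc
Lss: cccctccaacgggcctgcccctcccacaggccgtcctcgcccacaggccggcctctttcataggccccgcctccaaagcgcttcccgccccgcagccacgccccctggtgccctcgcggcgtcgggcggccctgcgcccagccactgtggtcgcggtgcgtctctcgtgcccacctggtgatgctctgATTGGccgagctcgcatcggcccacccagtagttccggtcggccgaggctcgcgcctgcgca
The Hmgcs1 stretch held CACCCCAC at position -136 from the start, and CCAAT on the reverse strand at -237, -176 and -45. The Lss stretch held CCAAT on the reverse strand at -62. Neither motif was in the Aacs stretch. Of the 22 sterol synthesis genes listed, 17 had a promoter in the RefSeq table, and 16 of these 17 (94.1%) held CCAAT while 2 (11.8%), Hmgcs1 and Acat2, held CACCCCAC. Over all 32851 promoters the shares were 33.8% and 2.58%. A listed gene counted when any of its promoters held the motif, while these shares are per promoter, so the measures are not alike. These matches describe letters in the window and not bound sites.

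Hmgcs1, the cytosolic HMG-CoA synthase, lies at chr13:119690379-119708260 on mm10. Its FPKM was 71.3, 81.1 and 92.3 (lowest, median and highest of 6) in AKK, 35.9, 47.3 and 57.2 in Model, and 74.8, 82 and 94.3 in Control. Every AKK library lay above every Model library and the AKK range overlapped that of Control. The log2 change was 0.73 ± 0.09 (SE), with an edgeR adjusted p of 0.00175, and it was called in all 12 fits that left out 1 AKK or Model library.

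Aacs encodes acetoacetyl-CoA synthetase, the cytosolic enzyme that turns the ketone body acetoacetate into a precursor for sterols and fatty acids, and lies at chr5:125475814-125517410. Its FPKM was 25.9, 28.6 and 32.5 in AKK, 14.5, 17.7 and 21.8 in Model and 24.6, 29.2 and 31.2 in Control. AKK and Model did not overlap. The log2 change was 0.63 ± 0.08 (edgeR adjusted p 0.00462), also called in all 12 such fits.

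Leaving out the 4 libraries above 70000000 counts, which were 3 of the 6 AKK libraries and Model_1341, ended all 3 calls. Hmgcs1 and Aacs then had log2 changes of 0.78 ± 0.11 and 0.63 ± 0.12, with edgeR adjusted p of 0.144 and 0.849. Without Model_1337 there were 2 calls, Hmgcs1 and Aacs.

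**Figure D1:**
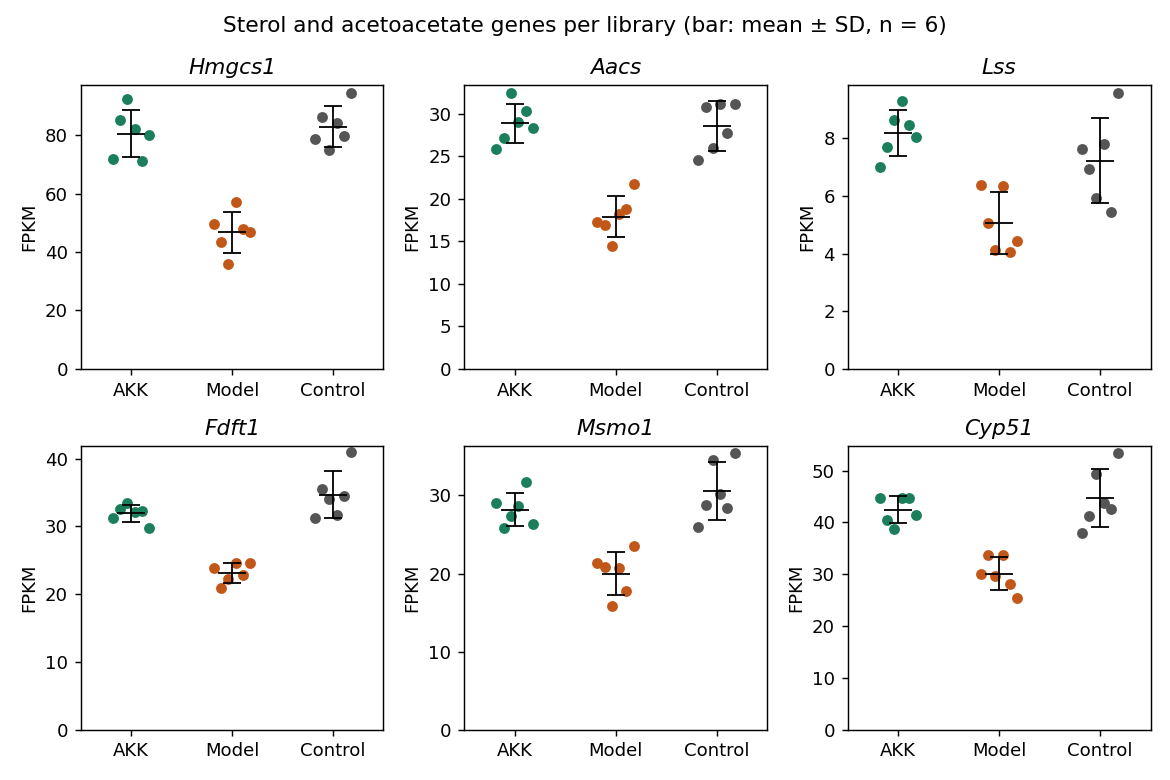
FPKM per library (vertical axes, from 0) of Hmgcs1, Aacs, Lss, Fdft1, Msmo1 and Cyp51 in AKK, Model and Control, each point 1 library and each bar the mean ± SD of 6. In all 6 genes the lowest AKK library lies above the highest Model library.

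Most of the sterol pathway had positive changes. Among the 22 sterol synthesis genes, all tested, 2 were called higher and 13 were higher at an unadjusted p under 0.05, a level reached in that direction by 335 genes, 2.45% of all tested. The log2 change was above 0 in 20 of 22, against 6176 genes or 45.1% of all tested, and its median was 0.29, against -0.02 over all genes. In 8 of the 22 the groups did not overlap with AKK above, which held for 102 genes or 0.745% of all. Of the 20 genes with the smallest p, 10 came from the sterol synthesis and the sterol control and uptake lists. The list was already known to differ from an earlier look at these data and is no independent evidence of the direction.

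The other mevalonate arm genes described here did not pass the adjusted threshold. Mvd, mevalonate diphosphate decarboxylase, had 27.3, 29.4 and 33.5 FPKM in AKK against 17, 19.6 and 26.7 FPKM in Model, with no overlap (log2 change 0.47 ± 0.11, edgeR adjusted p 0.624). Fdps, farnesyl diphosphate synthase, had 26.4, 31.9 and 34.7 FPKM in AKK against 20.2, 24 and 25.4 FPKM in Model, again apart (0.36 ± 0.10, adjusted p 0.741). Mvk, Idi1 and Acat2 had log2 changes of 0.22, 0.32 and 0.29 with overlapping groups.

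The enzymes committed to sterol came next. Fdft1, squalene synthase, had 29.7, 32.2 and 33.5 FPKM in AKK against 20.9, 23.3 and 24.6 FPKM in Model (log2 change 0.40 ± 0.08, edgeR adjusted p 0.179). Lss, which closes squalene epoxide into lanosterol, had 7.01, 8.25 and 9.28 FPKM in AKK against 4.04, 4.75 and 6.38 FPKM in Model (0.64 ± 0.12, adjusted p 0.179). Neither gene overlapped between AKK and Model, and neither was called. Msmo1, the methylsterol oxidase, had 25.8, 28.1 and 31.7 FPKM in AKK against 15.8, 20.7 and 23.5 FPKM in Model (0.44 ± 0.09, adjusted p 0.27). Cyp51, the lanosterol demethylase, was apart as well (0.43 ± 0.10, adjusted p 0.457), and Sqle, squalene epoxidase, was at 0.44 ± 0.10 with a slight overlap. Among later steps, Nsdhl was at 0.29 ± 0.11 and Dhcr7 at 0.21 ± 0.14, which was 0.10 ± 0.10 without Model_1337. Ggps1, on a branch to other isoprenoids, was below 0 at -0.13 ± 0.09.

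Without Model_1337 the list held 15 members at an unadjusted p under 0.05 and a median of 0.35. Without the 4 libraries above 70000000 counts it held 8 and a median of 0.27. The median stayed above 0 in all 24 alternatives, from 0.25 to 0.44. DESeq2 called 13 genes in all, among them Lss, Fdft1, Msmo1, Sqle, Cyp51, Mvd and Insig1.

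**Figure D2:**
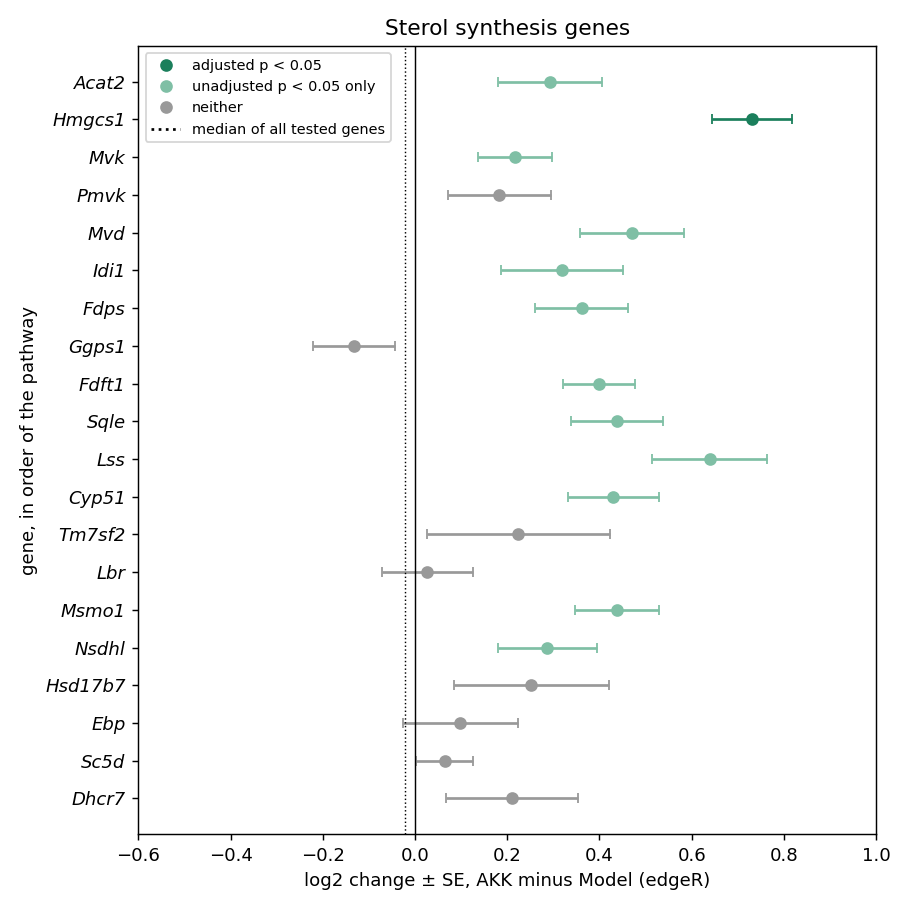
Log2 change with its SE (horizontal axis, AKK minus Model, edgeR) of 20 of the sterol synthesis genes in the order of the pathway, with the median of all tested genes dotted. Hmgcs1 has the largest change at 0.73, and Ggps1 is the gene below 0.

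Genes that take up sterol or control its synthesis were uneven. Of the 17 tested, 6 were higher at an unadjusted p under 0.05 and none was called. Insig1, the retention protein that is itself an SREBP target, had 42, 49.7 and 61.6 FPKM in AKK against 15.6, 29 and 42.1 FPKM in Model, with 1 Model library just above the lowest AKK library (log2 change 0.83 ± 0.20, edgeR adjusted p 0.693). Stard4, a sterol carrier, was apart between the groups at 0.48 ± 0.18, and was at 0.32 ± 0.08 without Model_1337. The transcription factor genes themselves differed less, Srebf1 by 0.21 ± 0.09 and Srebf2 by 0.14 ± 0.06.

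The sterol exporters Abca1 and Abcg1, targets of the liver X receptors, had log2 changes of -0.36 ± 0.27 and -0.25 ± 0.23 with overlapping groups. Both values rested on Model_1337, without which they were 0.00 ± 0.20 and -0.07 ± 0.21. The median of the sterol control and uptake list was -0.06, and it was 0.09 without Model_1337 and 0.11 on TPM, where the median of all genes was 0.14.

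Of the 16 tested fatty acid synthesis genes, which SREBP-1c mainly drives, 3 were higher at an unadjusted p under 0.05, none was called and the median was 0.15, or 0.09 without Model_1337. The count was 2 without Model_1337, and 1 without Model_1341 or without the 4 libraries above 70000000 counts. By limma on log2(TPM + 1) it was 7, where 1750 of all 13697 genes were higher at that level. Fasn, fatty acid synthase, had 15.1, 19.4 and 22.1 FPKM in AKK against 10.1, 13.4 and 15.7 FPKM in Model, the ranges just overlapping (log2 change 0.48 ± 0.14, edgeR adjusted p 0.741). Acly, which supplies cytosolic acetyl-CoA, was at 0.30 ± 0.11.

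**Figure D3:**
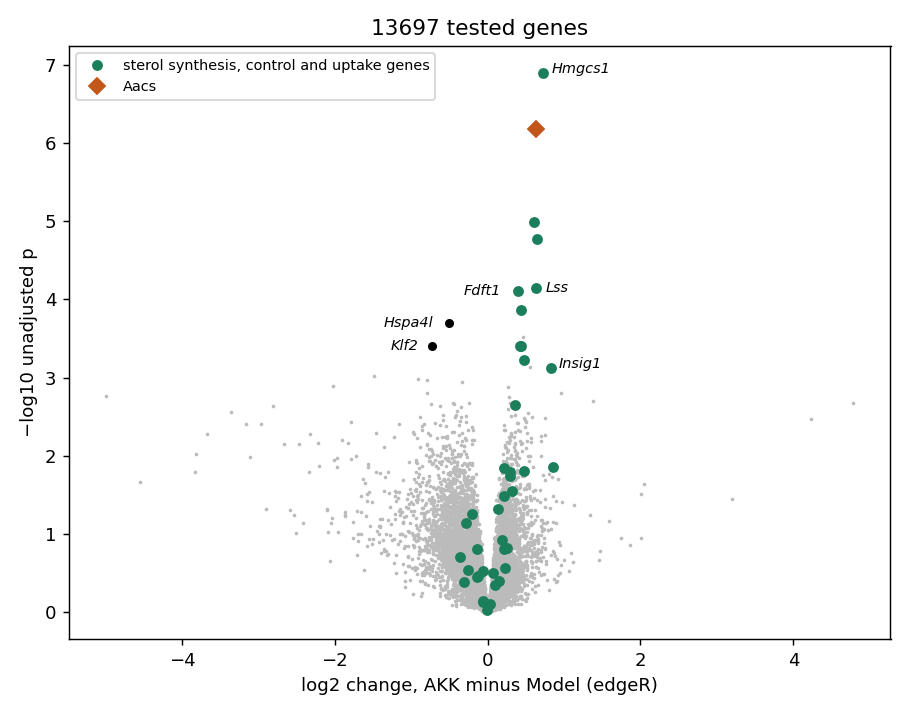
Unadjusted p (vertical axis, −log10) against the log2 change (horizontal axis, AKK minus Model, edgeR) for the 13697 tested genes, with the sterol synthesis, control and uptake genes as circles and Aacs as a diamond. Hmgcs1 and Aacs have the smallest p of all genes, and Hspa4l and Klf2 have the smallest p among the named genes with a negative change.

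At the level of all genes, 909 had an unadjusted p under 0.05, which is 6.64% of those tested, and 574 of them (4.19% of all tested) were lower in AKK. Overlap of groups was read on FPKM throughout and not on TMM-scaled values. On that scale AKK lay wholly below Model in 9 genes, 0.0657%, and wholly above in 102 genes, 0.745%. At least a 2-fold change with an unadjusted p under 0.05 was seen in 73 genes. The split by direction depended on the scale, which bears on the counts of separated genes too. By edgeR with TMM scaling 36.9% of the genes under 0.05 were higher in AKK, by limma on log2(FPKM + 1) 85.5% and by limma on log2(TPM + 1) 97.1%. TPM scaling moved the median log2 change of all genes to 0.14, against -0.02, and list medians on that scale are read relative to it. Without Model_1337 edgeR had 382 genes higher (2.79%) and 384 lower (2.8%).

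The Model libraries differed from each other more than the AKK libraries did. The median SD of log2(FPKM + 1) over genes was 0.129 in AKK, 0.27 in Model and 0.2 in Control, and 90.5% of genes had the larger SD in Model. Pairwise correlations across genes ran from 0.951 to 0.977 within AKK and from 0.768 to 0.975 within Model. Without Model_1337 and Model_1341 the Model SD was 0.183, still above that of AKK.

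The KEGG column placed 5134 tested genes, the Gene Ontology (GO) column 12274 and the Reactome column 6548. Among terms with 15 to 200 tested genes, those of highest median included terms on sterols, mucin glycans, carbon metabolism and transport through the Golgi. In Reactome, Cholesterol biosynthesis led (24 genes, 2 called, 13 higher at an unadjusted p under 0.05, median 0.27). In GO, cholesterol biosynthetic process led (20 genes, 1 called, 10 higher at that level, median 0.24). In KEGG, Steroid biosynthesis had 6 of 15 genes at that level (median 0.22), and Terpenoid backbone biosynthesis, the mevalonate steps, had 7 of 21 with 2 called (median 0.16). The called members of Butanoate metabolism and of Valine, leucine and isoleucine degradation were Hmgcs1 and Aacs in both. Other terms with a called gene included 4 GO terms and KEGG Bile secretion and AMPK signaling, with 1 gene each, and GO liver development, with 2 of 39 (median 0.04). Without Model_1337 the medians of Terpenoid backbone biosynthesis and Butanoate metabolism were 0.08 and 0.07.

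Secretory pathway terms held more genes under 0.05 than the 2.45% of all genes, none of them called. The GO term COPI-coated vesicle membrane, the coat of vesicles that return from Golgi to endoplasmic reticulum, had 9 of 16 genes at an unadjusted p under 0.05, 15 of 16 above 0 and a median of 0.18. Copb1, a coat subunit, had 29.3, 34.5 and 35.3 FPKM in AKK against 20.3, 27.6 and 29 FPKM in Model, with no overlap (log2 change 0.28 ± 0.09, edgeR adjusted p 0.741). Copg1, another subunit, was at 0.20 ± 0.07 with overlap. Protein N-linked glycosylation had 8 of 38 at that level and a median of 0.19. Its member of smallest p was Stt3a, a catalytic subunit of the oligosaccharyltransferase, at 0.25 ± 0.09. Next came Alg6, a glucosyltransferase of the lipid-linked oligosaccharide, at 0.40 ± 0.14, and at 0.27 ± 0.08 without Model_1337. Both terms had 6 genes at that level without Model_1337, with medians of 0.14 and 0.11. With the 4 libraries above 70000000 counts left out, they had 4 and 2 genes, with medians of 0.21 and 0.24.

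Mucin glycan terms had high medians with few genes under 0.05. KEGG Mucin type O-glycan biosynthesis (21 genes, 3 higher and 2 lower at an unadjusted p under 0.05) had a median of 0.26, and Reactome O linked glycosylation of mucins (40 genes, 4 and 3) one of 0.24. Without Model_1337 these medians were 0.08 and 0.09. The other terms of high median were KEGG Glyoxylate and dicarboxylate metabolism (0.19) and the lacto and neolacto glycosphingolipids (0.18), GO hexosyl transfer (0.23), and Reactome sialic acid metabolism (0.19), N-glycan substrate synthesis (0.16) and the citric acid cycle, in which 22 of 22 genes were above 0 (median 0.15) and 16 of 22 without Model_1337. Without that library the medians were 0.12 for glyoxylate and dicarboxylate metabolism, 0.06 for the lacto and neolacto glycosphingolipids, 0.07 for hexosyl transfer, 0.08 for sialic acid metabolism, 0.07 for N-glycan substrate synthesis and 0.07 for the citric acid cycle.

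Terms of lowest median were immune. GO immunoglobulin production had 81 genes, 27 above 0 and a median of -0.55, cellular response to interferon-beta 28 genes, 2 above 0 and -0.43, and immune response 161 genes, 36 above 0 and -0.40. KEGG Staphylococcus aureus infection had 1 of 36 genes above 0 and a median of -0.41, and the Intestinal immune network for IgA production 5 of 31 and -0.41. The 3 next, Autoimmune thyroid disease, Graft-versus-host disease and Type I diabetes mellitus, which share antigen presentation genes, each had a median of -0.33. The lowest Reactome medians, from -0.44 for CD22 mediated BCR regulation to -0.40 for FCGR activation, came from terms made largely of immunoglobulin segments. None of these terms held a called gene. Without Model_1337 the medians were -0.44 for immunoglobulin production, -0.24 for the response to interferon-beta and -0.04 for Staphylococcus aureus infection. They were -0.22 for immune response, -0.19 for the IgA network and -0.23 for each of the 3 terms that share antigen presentation genes. The median of CD22 mediated BCR regulation was -0.20 without Model_1337 and -0.70 without Model_1341. On TPM the immunoglobulin production median was 0.05 and that of CD22 mediated BCR regulation 0.04, both below the 0.14 of all genes on that scale. The 2 other low GO terms were chemokine-mediated signaling pathway (-0.40) and negative regulation of myeloid cell differentiation (-0.40), at -0.02 and -0.04 without Model_1337.

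Cell type markers were read by list. Fewer cells of a type and less RNA per cell cannot be told apart in bulk tissue. Goblet cell genes, for the secretory cells that make the mucus, had 19 of 20 members above 0 and a median of 0.42, with 0 at an unadjusted p under 0.05. By limma on log2(TPM + 1) 10 of 20 were higher at that level, against 1750 of all 13697 genes, with a median of 0.98. The median of all genes on that scale was 0.14. By limma on log2(FPKM + 1) 8 of 20 were higher at that level, against 970 of all genes. Muc2, the main gel-forming mucin, had 1030, 1370 and 1630 FPKM in AKK against 26.3, 832 and 1250 FPKM in Model and 589, 1360 and 1740 FPKM in Control (log2 change 0.73 ± 0.54, edgeR adjusted p 0.779). The lowest Model value was that of Model_1337, without which the log2 change was 0.48 ± 0.30 and the list median 0.21. Ern2, the stress sensor of mucus-secreting cells, was at 0.73 ± 0.40, and Galnt12, which starts mucin O-glycans, at 0.41 ± 0.26. The lowest AKK library of Galnt12, at 69.1 FPKM, lay just above the highest Model library, at 68.9 FPKM. Without Model_1337 Ern2 was at 0.50 ± 0.26 and Galnt12 at 0.21 ± 0.11. Absorptive colonocyte genes had a median of 0.04, which was -0.18 without Model_1337. Their members of smallest p pointed opposite ways, with Atp12a, a proton pump, at -2.42 ± 1.27 and Slc26a3, the chloride-bicarbonate exchanger, at 0.63 ± 0.50 (0.42 ± 0.44 without Model_1337).

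Smooth muscle genes had 0 of 20 members above 0, 9 lower at an unadjusted p under 0.05 (4.19% of all genes were) and a median of -0.57. Lmod1, which nucleates actin in muscle, had 9.26, 11.3 and 12.4 FPKM in AKK against 9.45, 17.1 and 21.4 FPKM in Model (log2 change -0.63 ± 0.19, edgeR adjusted p 0.741). Pgm5, a protein of muscle adhesion sites, was at -0.68 ± 0.25, and at -0.45 ± 0.22 without Model_1337. Without Model_1337 the list had 1 member at that level and a median of -0.43, and without Model_1341 too it had 0 and -0.13. The count was 2 without AKK_1309 alone or Model_1341 alone. It was 1 by limma on log2(TPM + 1) and 0 without the 4 libraries above 70000000 counts. The median stayed below 0 in all 24 alternatives, from -0.71 to -0.13.

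Enteric neuron and glia genes had 0 of 14 members above 0, 9 lower at an unadjusted p under 0.05 and a median of -0.61. Prph, an intermediate filament of peripheral neurons, had 2.31, 3.99 and 5.48 FPKM in AKK against 5.17, 5.99 and 10.8 FPKM in Model, with a slight overlap (log2 change -0.92 ± 0.29, edgeR adjusted p 0.741). Tubb3, neuronal tubulin, was at -0.80 ± 0.26. Model_1337 and Model_1341 had the 2 highest values of this list and of the smooth muscle list. Without Model_1337 the neuron and glia list had 7 members at that level and a median of -0.52, and without both it had 0 and -0.33. The count was 5 without AKK_1309 alone or Model_1341 alone. It was 4 by limma on log2(TPM + 1) and 2 without the 4 libraries above 70000000 counts. The median of this list was below 0 in all 24 alternatives, from -0.73 to -0.33. How much of the muscle wall each piece of colon held was not tested.

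**Figure D4:**
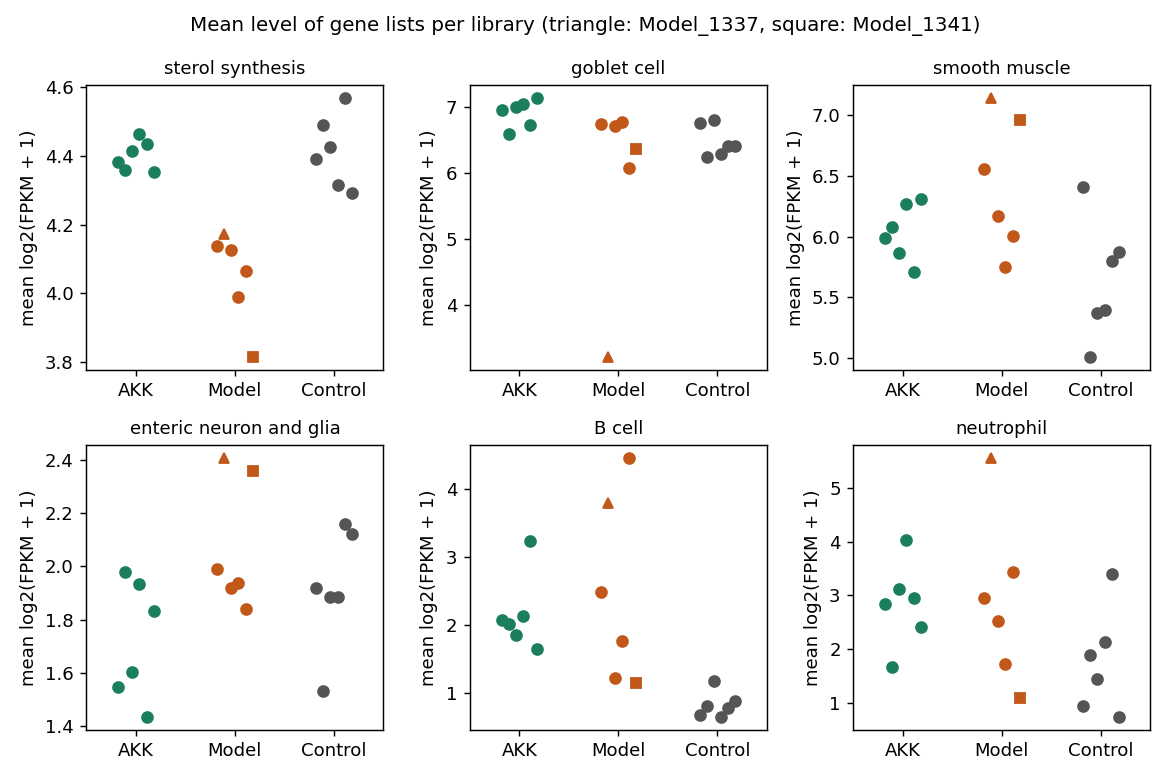
Mean log2(FPKM + 1) over 6 gene lists (vertical axes) in each library of AKK, Model and Control, with Model_1337 as a triangle and Model_1341 as a square. Sterol synthesis is the panel in which the AKK and Model libraries do not overlap, from 4.35 to 4.46 in AKK and from 3.81 to 4.17 in Model.

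B cell, plasma cell and class II lists had medians below 0 and no called gene. On TPM the medians were -0.25, -0.02 and -0.12, against 0.14 over all genes. B cell genes had 0 of 10 members above 0 and a median of -0.98, plasma cell genes 2 of 23 and -0.46, and MHC class II genes 0 of 11 and -0.42. Without Model_1337 these medians were -0.75, -0.39 and -0.23, and without Model_1340 they were -0.25, -0.16 and -0.19. Genes lower at an unadjusted p under 0.05 numbered 0 in the B cell list and 2 in the plasma cell list, against 6 in the B cell list without AKK_1309 and 11 in the plasma cell list without Model_1341. Ighm, the IgM heavy chain, had 32.8, 54.7 and 136 FPKM in AKK against 23.8, 169 and 703 FPKM in Model and 5.72, 7.51 and 10.3 FPKM in Control, the AKK range lying within that of Model (log2 change -1.82 ± 0.60, edgeR adjusted p 0.741, and -1.16 ± 0.52 without Model_1337). Cd79a, of the B cell receptor, was at -0.93 ± 0.51, Spib at -0.77 ± 0.39 and Ighg2b at -1.55 ± 0.65. H2-DMb2, which loads class II peptides, was at -1.09 ± 0.54, and Ciita, the class II activator, at -0.83 ± 0.41. With Model_1337 left out, Cd79a was at -0.77 ± 0.53, Spib at -0.68 ± 0.41 and Ighg2b at -1.17 ± 0.645. H2-DMb2 and Ciita were then at -0.89 ± 0.56 and -0.58 ± 0.41. Model_1340 held the highest Model FPKM of Cd79a (56.7), Spib (16.6) and H2-DMb2 (27.8). Over single left-out libraries the log2 changes of these 3 genes ranged from -1.28 to -0.26, -0.97 to -0.28 and -1.51 to -0.40. Immunoglobulin genes took 1.69% ± 0.592 of counts in AKK and 2.35% ± 1.68 in Model (SD, n = 6 each, exact two-sided permutation test over libraries p = 0.381, adjusted p = 0.762 over 2 shares).

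Neutrophil genes had a median of -0.69 that turned to 0.56 without Model_1337. Csf3r, the G-CSF receptor, had 2.28, 3.37 and 6.25 FPKM in AKK against 0.652, 4.07 and 51.2 FPKM in Model, the 51.2 being Model_1337 (log2 change -1.66 ± 0.79, and -0.03 ± 0.56 without it). Clec4d, a lectin receptor of myeloid cells, was at -1.59 ± 0.79 and at -0.02 ± 0.56 without it. Macrophage genes had a median of -0.29, which was -0.01 without Model_1337, and 0.05 on TPM against 0.14 over all genes. Their members of smallest p were Ccr2, the monocyte chemokine receptor, at -0.73 ± 0.46 and Fcgr3, an IgG receptor, at -0.56 ± 0.37. Without Model_1337 they were at -0.36 ± 0.44 and -0.22 ± 0.34.

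Interferon response genes had 1 of 36 members above 0 and a median of -0.38, which was -0.39 without Model_1337. It was -0.21 without AKK_1305, -0.18 without Model_1316, -0.20 without Model_1341, -0.20 without the 4 libraries above 70000000 counts, and -0.12 on TPM. Psmb8, an immunoproteasome subunit, had 7.93, 14.5 and 18.2 FPKM in AKK against 14.7, 19.5 and 25.7 FPKM in Model and 15.4, 22.1 and 38.9 FPKM in Control (log2 change -0.49 ± 0.23, edgeR adjusted p 0.741). Ifi47, an interferon-induced GTPase, was at -0.49 ± 0.29. Both overlapped between AKK and Model.

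Heat shock genes had 6 of 16 lower at an unadjusted p under 0.05 and a median of -0.29. With 1 library left out the count ranged from 2, without AKK_1303, AKK_1309 or Model_1341, to 7, and it was 1 without the 4 libraries above 70000000 counts. Hspa4l, an HSP110 chaperone, had 3.79, 4 and 4.67 FPKM in AKK, 4.77, 5.25 and 6.78 FPKM in Model and 2.95, 3.83 and 4.17 FPKM in Control, all AKK libraries below all Model libraries (log2 change -0.51 ± 0.11, edgeR adjusted p 0.346). It was the 1 gene that DESeq2 called lower. Hsph1, its paralog, was at -0.96 ± 0.30 with overlap. Among immediate early genes Klf2, the flow- and quiescence-related transcription factor, had 6.38, 7.83 and 9.84 FPKM in AKK against 7.65, 13.3 and 16.8 FPKM in Model (-0.73 ± 0.17, adjusted p 0.457), and Fosl2 was at -0.26 ± 0.12 (-0.13 ± 0.08 without Model_1337). The immediate early list had 3 of 18 lower at that level and a median of -0.30, and the medians of both lists were below 0 in all 24 alternatives.

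Fetal-like repair genes, which regenerating epithelium takes up, had 0 of 14 above 0 and 4 lower at an unadjusted p under 0.05, with a median of -0.54 that was -0.16 without Model_1337. Ly6d had 7.69, 13.5 and 20.9 FPKM in AKK against 11.6, 22.4 and 477 FPKM in Model, and Anxa1 had 31, 47.5 and 50.4 FPKM in AKK against 33.5, 51.4 and 1050 FPKM in Model. Model_1337 held the highest value of each, and without it the log2 changes were -0.89 ± 0.40 and -0.21 ± 0.23, against -2.81 ± 0.79 and -2.22 ± 0.72 with it. The same held for the skeletal muscle genes Acta1 and Ckm, at -0.22 ± 0.27 and -0.60 ± 0.39 without it.

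Cell cycle genes had 30 of 32 members above 0 and a median of 0.11. Plk1, the mitotic kinase, had 24.9, 26.6 and 30.2 FPKM in AKK against 9.79, 21.4 and 24.2 FPKM in Model, with no overlap (log2 change 0.39 ± 0.18, edgeR adjusted p 0.741, and 0.24 ± 0.10 without Model_1337), and Tyms, thymidylate synthase, was at 0.27 ± 0.15. Extracellular matrix genes had 24 of 33 above 0 and a median of 0.13, with Col1a1, a chain of type I collagen, at 88 FPKM (median) in AKK and 49.5 FPKM in Model (0.48 ± 0.21) and Col6a2 at 0.30 ± 0.17. The matrix median was -0.005 without Model_1341 alone, and -0.01 without the 4 libraries above 70000000 counts.

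**Figure D5:**
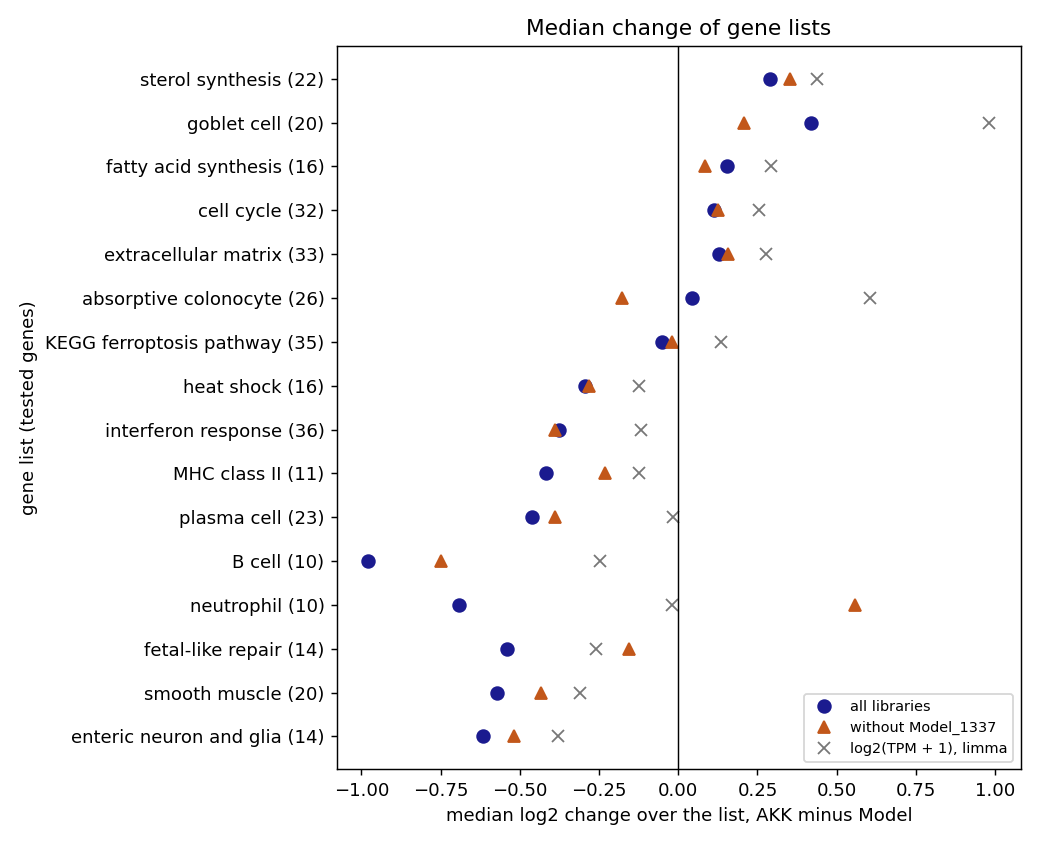
Median log2 change over 16 gene lists (horizontal axis, AKK minus Model), with all libraries, without Model_1337 and by limma on log2(TPM + 1), list sizes in parentheses. Sterol synthesis lies at 0.29, 0.35 and 0.44, while the neutrophil median changes sign without Model_1337.

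The ferroptosis genes named by the study's question held no call. Of the 35 tested genes of the KEGG ferroptosis pathway, 1 was higher and 3 were lower at an unadjusted p under 0.05 (2.45% and 4.19% of all genes), 12 were above 0, and the median was -0.05. On TPM it was 0.14, where the median of all genes was also 0.14. The 3 lower genes became 0 without Model_1337 and 6 without Model_1341. Genes known to restrain ferroptosis had a median of -0.04 (24 tested, 1 at that level, the mitochondrial dehydrogenase gene Dhodh at 0.23 ± 0.09) and genes known to promote it one of -0.06 (21 tested, Tfrc higher and Sat1 lower at that level). On TPM these medians were 0.14 and 0.12, against the 0.14 of all genes, and that of the ferroptosis promotion list was 0.03 without Model_1337. Hspb1, a small heat shock protein of the restraining list, was at -0.60 ± 0.30, and at -0.33 ± 0.27 without Model_1337.

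Tfrc, the transferrin receptor that brings iron into cells, was the pathway gene with the smallest p. It had 25.2, 29.1 and 43.3 FPKM in AKK, 12, 17.1 and 22 FPKM in Model and 12.9, 25.2 and 35.2 FPKM in Control. AKK and Model did not overlap, but the log2 change of 0.76 ± 0.22 was not called (edgeR adjusted p 0.741), and it was 0.66 ± 0.21 without Model_1337. Map1lc3a, an autophagosome protein, had the next smallest p at -0.24 ± 0.11.

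The peroxide defence genes had overlapping groups. Gpx4, the glutathione peroxidase that reduces lipid peroxides, had 45.5, 61.2 and 68 FPKM in AKK against 48.2, 66 and 84.9 FPKM in Model (log2 change -0.23 ± 0.14, edgeR adjusted p 0.76). Aifm2, a ubiquinone reductase that acts beside it, had 2.66, 3.52 and 4.01 FPKM in AKK against 2.85, 3.21 and 9.79 FPKM in Model (-0.31 ± 0.24, adjusted p 0.793, and 0.08 ± 0.14 without Model_1337). Slc7a11, the cystine transporter, lay below the FPKM filter and had 0.5, 0.824 and 1.09 FPKM in AKK against 0.558, 0.871 and 8.16 FPKM in Model, the highest being Model_1337. Nfe2l2, the antioxidant transcription factor, was at -0.02 ± 0.21.

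On the promoting side, Acsl4, which feeds polyunsaturated fatty acids into membranes, had 6.49, 7.24 and 7.9 FPKM in AKK against 3.05, 7.57 and 18.3 FPKM in Model (log2 change -0.28 ± 0.25, edgeR adjusted p 0.806, and 0.03 ± 0.18 without Model_1337). Hmox1, heme oxygenase, was at -0.56 ± 0.31, and at -0.17 ± 0.25 without Model_1337. Ptgs2, a prostaglandin synthase often read as a marker, was at -0.41 ± 0.38. Read apart from the promoting side, the iron store gene Fth1 was at -0.32 ± 0.20 and the iron exporter Slc40a1 at 0.03 ± 0.34 (-0.12 ± 0.33 without Model_1337). All 5 genes, Acsl4, Hmox1, Ptgs2, Fth1 and Slc40a1, overlapped between the groups. Their SEs ran from 0.20 to 0.38 on the log2 scale, and differences of that size were not detectable.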

How the data were processed

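Colon RNA of 6 AKK, 6 Model and 6 Control libraries was analysed from 1 table. Per the labels' protocols, polyadenylated RNA was made into dUTP libraries; the submitters' processing notes name cutadapt 1.9, HISAT2 2.2.1, StringTie 2.1.6 and mm10. Annotation release and strand setting are unstated in those notes, so overlapping antisense genes and near-identical copies (immunoglobulin constant genes, Hspa1a and Hspa1b) are uncertain. The authors deposited an FPKM and an estimated count per gene and library, per the file headers; the estimated counts were whole numbers and needed no rounding. Counts of 4, 8 and 12 occurred 2.36, 1.74 and 1.36 times as often as adjacent values, and division by 4 was an alternative.

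Genes with FPKM of 1 or more in at least 6 of the 12 AKK and Model libraries were fitted with edgeR 4.0.16 (TMM scaling, quasi-likelihood test, 1 term per group, all 18 libraries), with Benjamini-Hochberg adjustment and a threshold of 0.05. R 4.3.3, limma 3.58.1 and DESeq2 1.42.0 gave alternatives, with other scalings, pseudocounts, filters and left-out libraries; plots used matplotlib 3.10.9 under Python 3.11.15. The fit was tested on simulated counts. Shares of counts were compared by an exact two-sided permutation test over libraries, 924 splits. FPKM levels are given as lowest, median and highest of 6. Promoters came from RefSeq on GRCm38.p6. The SE of an edgeR log2 change was the size of the change divided by the square root of the moderated F. Intervals cover the spread between libraries only.

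The 45 gene lists, the comparison and the rule for named genes were chosen with earlier results of these data known. Named are the called genes whose groups did not overlap, filled up by called genes (3 in all), the 2 members of each described list with the largest change among called genes or else the smallest p, and 10 ferroptosis genes; for terms, the 5 of highest and lowest median and largest share called. All other sterol genes, the tissue markers, Muc2, Copb1, Copg1, Stt3a and Alg6 were named after their values were seen. Some sterol genes that the rule or the lists cover are not reported here and count in the list totals alone.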

Additional observations from a re-analysis of the deposited data

Results flagged for a closer look

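In 148 groups of 6 values (FPKM of the named genes and both shares, in AKK and in Model) 29 held a single library whose gap to its neighbour took more of the group's range than Dixon's critical value allows. Chance marks about 1 in 20 groups, and the groups share libraries.

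Model_1337 accounted for 14. It had the highest Model value of Anxa1 (1050 FPKM), Ly6d (477), Acta1 (132), Ckm (60.6), Csf3r (51.2), Pgm5 (50.7), Fosl2 (28.5), Hmox1 (26.5), Clec4d (25.2), Mvk (11.1), Aifm2 (9.79) and Slc7a11 (8.16), and the lowest of Stard4 (12) and Dhcr7 (7.33). Model_1341 had the highest mitochondrial share, 17% of counts, and the lowest FPKM of Copb1 (20.3) and Stt3a (12.6) in Model.

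In AKK, AKK_1309 had the highest FPKM of Cd79a (22.5), H2-DMb2 (10.5), Spib (6.71) and Dhcr7 (16.3) and the highest immunoglobulin share, 2.81%. AKK_1306 had the highest FPKM of Tfrc (43.3), Csf3r (6.25) and Hspa4l (4.67). AKK_1303 had the highest of Slc40a1 (30.5) and the lowest of Anxa1 (31) and Stt3a (17.4), and AKK_1305 the lowest of Mvk (9.21). For Cd79a, Spib and H2-DMb2 the other 5 AKK libraries reached at most 9.91, 4.02 and 3.95 FPKM; for Hmgcs1 and Aacs no library stood out in this way.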

How the results depend on the processing

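The 3 calls became 13 by DESeq2, 1 without both Model_1337 and Model_1341 and 0 without the 4 libraries above 70000000 counts, an alternative chosen after seeing the data (633 genes then had an unadjusted p under 0.05). Leaving out 1 library gave 2 to 4 calls. Genes whose groups did not overlap numbered 111, 249 without both Model libraries, and 196 without Model_1337, fewer libraries making separation easier. The mitochondrial share was 6.43% ± 0.549 in AKK and 7.76% ± 4.72 in Model (SD, n = 6, exact permutation p = 0.768); the difference of -1.33 percentage points ranged from -2.1 to 0.516 when Model_1337 or Model_1341 was left out, and that of the immunoglobulin share, -0.664, from -1.07 to -0.41. Hmgcs1 was called in 23 of 24 alternatives and Aacs in 22.

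Signs turned as follows, none of these genes being called. Acsl4 was at 0.00 on TPM. Nfe2l2 was at 0.15 on TPM, 0.06 and 0.07 on FPKM with pseudocounts of 1 and 0.1, 0.01 with no filter and 0.14 without the 4 large libraries. Aifm2 and Slc40a1 were at 0.10 and -0.21 without both Model libraries. Over single left-out libraries Acsl4 ranged from -0.46 to 0.03, Nfe2l2 from -0.12 to 0.09, Aifm2 from -0.39 to 0.08 and Slc40a1 from -0.34 to 0.19. The cause was not tested. No paired analysis was possible because the groups share no replicate numbers.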

Other observations

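Nuclear-encoded oxidative phosphorylation genes had 29 of 38 members above 0 and a median of 0.09, which was -0.04 without Model_1337. Proteasome genes had a median of -0.02, ER folding and stress genes -0.08, circadian clock genes -0.05 and hypoxia and glycolysis genes -0.02. Tight junction genes stood at 0.09, tuft cell genes at 0.17, stem and progenitor genes at 0.14 and T cell genes at -0.23. Without Model_1337 the medians were -0.04 for tight junction, 0.05 for tuft cell, 0.10 for stem and progenitor and -0.15 for T cell genes, and 0.005 for proteasome genes. In each of these 9 lists 0 genes were called by edgeR, and 0 to 2 had an unadjusted p under 0.05 in either direction.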
